A study of Mus musculus with 4 samples.

Results

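Apolipoproteins are the protein components of lipoproteins, the particles that carry cholesterol, triglyceride and phospholipid in plasma, and the liver is a main source of them. The genes described here are Apoa1, Apoa2, Apoa4, Apob, Apoc1, Apoc3, Apoe, Apoh and Apom, together with Mttp, which encodes the large subunit of the microsomal triglyceride transfer protein. They were chosen by name and identified by Ensembl gene ID, which gave 10 genes of the 53465 listed. Apob is the scaffold of very low density lipoproteins (VLDL), and Mttp loads lipid onto it in the endoplasmic reticulum (ER) while it is being made. Apoe is a ligand of the low density lipoprotein receptor family, and Apoa1 and Apoa2 are the main proteins of high density lipoproteins. All of these proteins enter the ER, so their mRNAs are translated on ribosomes at the ER membrane.

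The libraries came from Hepa 1-6 cells, a mouse line that the labels describe as hepatocellular carcinoma. Cells labelled Usp5 Knockdown carried the guide sgUsp5, against a ubiquitin-specific protease, and cells labelled WT carried sgcontrol. They are called Usp5 Knockdown and control cells here. From each, RNA was sequenced after immunoprecipitation with an antibody to YTHDF1 (RIP), a cytoplasmic reader of N6-methyladenosine marks on mRNA, and from 10% of the lysate set aside before it (input). This gave 4 groups with 1 library each: Usp5 Knockdown RIP, Usp5 Knockdown input, control RIP and control input. The design thus allows RIP to be set against input in each of the cells, and Usp5 Knockdown against control in each fraction.

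The libraries held between 29898171 and 33941019 counted reads. At this depth a gene with 0 reads could have up to 3, which corresponds to between 0.0841 and 0.105 CPM (reads scaled to library size, with TMM factors). Names were at hand for the Ensembl IDs of these 10 genes alone. The levels of Usp5 and Ythdf1, of other lipoprotein genes and of markers of hepatocytes or other cell types were not analysed here. Ratios between 2 libraries are given with 95% counting intervals, which cover counting error only. They treat each read as independent, and since reads copied by PCR are not, they can be too narrow even for that error. By the 2-fold rule used below, a difference was called if the ratio reached 2-fold and this interval did not include equal levels. Scatter between libraries was far above counting error: at a mean log2 CPM between 0 and 6 it was 57.7 times the binomial variance between the inputs and 18.4 times between the RIP libraries. A second, widened interval takes these factors into account. Between RIP and input the scatter was 78.2 times the binomial variance in Usp5 Knockdown cells and 91.8 times in control cells. Those values include any enrichment in RIP and were not used for the widened interval. With 1 library per group, differences between Usp5 Knockdown and control cells had no replicate check and no p-value.

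The genes lie at several places in the genome (assembly GRCm38.p6, which mm10 corresponds to). Apoc1 (ENSMUSG00000040564, chromosome 7, 19689480 to 19692659) and Apoe (ENSMUSG00000002985, chromosome 7, 19696244 to 19701310) are neighbours with 3584 bases between them. Apoa1 (ENSMUSG00000032083, 46228630 to 46230469), Apoc3 (ENSMUSG00000032081, 46233050 to 46235636) and Apoa4 (ENSMUSG00000032080, 46240844 to 46243458) form a cluster on chromosome 9. Apob (ENSMUSG00000020609) spans 7977629 to 8016839 on chromosome 12, Mttp (ENSMUSG00000028158) 138089855 to 138143418 on chromosome 3, Apoh (ENSMUSG00000000049) 108395297 to 108414396 on chromosome 11 and Apom (ENSMUSG00000024391) 35128997 to 35131801 on chromosome 17. The RefSeq span of Apoa2 (ENSMUSG00000005681, chromosome 1, 171221564 to 171226379) overlaps that of Tomm40l, and its reads may be affected by how overlapping genes were counted. None of the other 9 spans overlapped another RefSeq gene.

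The 250 bases before a transcription start listed by RefSeq are shown for the genes with enough reads to be compared (Apob, Mttp, Apoe and Apoh) and for Apoa4, which had no reads. They come from RefSeq, read 5′ to 3′ on the gene's own strand. For Apoe the outermost of 3 starts in the promoter table was taken. It lies inside the gene span given above, which extends further upstream, so this window is within the annotated gene. The Apob window also runs past the start of its gene span, into the annotated gene. Capitals mark the motifs CAAAGNNCA, a core of sites for the liver receptor HNF4A, and TATAAA, on either strand. 
Apob (chr12:7977427-7977676, + strand): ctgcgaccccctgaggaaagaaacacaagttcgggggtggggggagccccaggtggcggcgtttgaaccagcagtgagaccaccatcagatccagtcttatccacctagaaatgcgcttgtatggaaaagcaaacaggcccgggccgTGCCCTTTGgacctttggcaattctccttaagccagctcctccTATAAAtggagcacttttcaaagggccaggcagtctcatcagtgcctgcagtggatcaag
Mttp (chr3:138143419-138143668, - strand): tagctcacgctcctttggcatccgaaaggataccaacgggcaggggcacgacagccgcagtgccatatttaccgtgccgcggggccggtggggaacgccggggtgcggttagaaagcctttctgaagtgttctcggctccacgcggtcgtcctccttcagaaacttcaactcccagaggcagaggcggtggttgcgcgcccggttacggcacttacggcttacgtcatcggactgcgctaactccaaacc
Apoe (chr7:19699189-19699438, - strand): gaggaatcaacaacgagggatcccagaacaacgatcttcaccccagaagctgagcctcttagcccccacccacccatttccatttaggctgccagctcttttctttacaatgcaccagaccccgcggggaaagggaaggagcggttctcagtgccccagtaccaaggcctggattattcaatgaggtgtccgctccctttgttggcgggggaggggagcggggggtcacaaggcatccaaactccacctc
Apoh (chr11:108395047-108395296, + strand): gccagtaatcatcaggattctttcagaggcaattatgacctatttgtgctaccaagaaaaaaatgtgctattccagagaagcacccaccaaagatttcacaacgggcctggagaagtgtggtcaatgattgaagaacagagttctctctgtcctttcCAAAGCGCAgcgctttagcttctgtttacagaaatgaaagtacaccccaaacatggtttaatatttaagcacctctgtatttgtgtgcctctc
Apoa4 (chr9:46240594-46240843, + strand): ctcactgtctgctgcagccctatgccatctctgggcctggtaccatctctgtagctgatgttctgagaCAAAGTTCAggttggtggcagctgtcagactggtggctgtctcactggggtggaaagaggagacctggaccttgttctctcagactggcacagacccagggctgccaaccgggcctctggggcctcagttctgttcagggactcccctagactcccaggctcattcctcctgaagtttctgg
CAAAGNNCA occurs once in the windows of Apob, Apoh and Apoa4, and TATAAA once in that of Apob. No match of the 2 motifs overlaps another. Of the 32851 windows of this length in the table, 5.49% hold CAAAGNNCA and 12.4% hold TATAAA. One more motif searched, GGGCGG (32.7% of windows), is in none of the 5. The windows of Apoa1, Apoa2 and Apom were searched too, are not shown, and hold no match to any of these motifs. Apoc1 and Apoc3 had no window in the promoter table. Apoa4, which had no reads, and Apob, which had at least 4222 in every library, thus share the first motif, and the windows of Apoe and Mttp hold none of these letters. These matches describe the sequence and show no binding.

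Of the 10 genes, 4 reached a mean of 1 CPM over the 4 libraries and were compared, and 6 did not. Apoe had between 14461 and 26086 reads per library, Apob between 4222 and 9541, Mttp between 526 and 1141, and Apoh between 26 and 216. Apoa1, Apoa2, Apoc1 and Apom had 249 reads together over all 4 libraries, and Apoa4 and Apoc3 had 0. These cells therefore gave reads for the VLDL assembly pair and for Apoe, while few or no reads came from the genes of the major high density lipoprotein proteins. Lengths of the transcripts were not used here, so read numbers are compared within a gene between libraries and not between genes. In bulk RNA, fewer cells with a transcript and less of it per cell cannot be told apart.

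**Figure D1:**
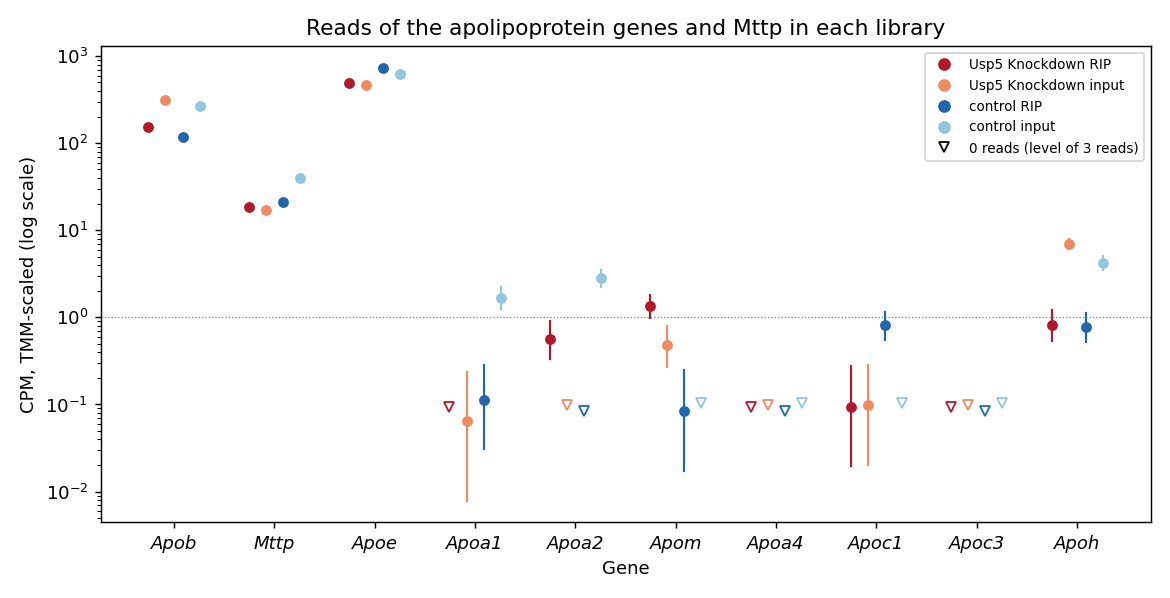
CPM (TMM-scaled, log axis) of the 10 genes in the 4 libraries, 1 point per library with its 95% counting interval; open triangles mark 0 reads, drawn at the level of 3 reads, and the dotted line marks 1 CPM. Apoe, Apob and Mttp lie above 10 CPM in every library, Apoa4 and Apoc3 are at 0 reads in all, and Apoa1, Apoa2, Apom and Apoc1 change by library.

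Apob, the structural protein without which VLDL is not formed, had 4844 reads in the Usp5 Knockdown RIP and 9541 in the Usp5 Knockdown input, with 4222 reads in the control RIP and 7733 in the control input. In CPM these were 153 and 310.1 in Usp5 Knockdown cells and 118 and 271 in control cells, RIP before input. Both inputs stood above both RIP libraries. The share of all genes with such an order of the libraries was not counted. Mttp, the lipid transfer partner of Apob, had 580 reads (18.3 CPM) in the Usp5 Knockdown RIP and 526 (17.1 CPM) in its input, with 752 (21.1 CPM) in the control RIP and 1141 (40.0 CPM) in the control input. The control input stood above the other 3 libraries, which lay close together.

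Apoe, the receptor ligand that clears lipoprotein remnants, had 15404 reads (486 CPM) in the Usp5 Knockdown RIP and 14461 (470.0 CPM) in its input, with 26086 (731 CPM) in the control RIP and 17642 (618 CPM) in the control input. Both Usp5 Knockdown libraries were below both control libraries, and the share of all genes with this order was not counted either. Apoh, a phospholipid-binding plasma glycoprotein, had 26 reads (0.820 CPM) in the Usp5 Knockdown RIP and 216 (7.02 CPM) in its input, with 28 (0.785 CPM) in the control RIP and 120 (4.21 CPM) in the control input. Both RIP libraries were low, and the 2 differed by 2 reads.

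Among the high density lipoprotein genes, Apoa1, which activates cholesterol esterification in plasma, had 0 reads in the Usp5 Knockdown RIP, 2 in its input, 4 in the control RIP and 48 in the control input. Apoa2 had 18 reads in the Usp5 Knockdown RIP, 0 in its input, 0 in the control RIP and 81 in the control input. Apom, the carrier of sphingosine phosphate, had 43 reads in the Usp5 Knockdown RIP, 15 in its input, 3 in the control RIP and 0 in the control input. Apoc1, an exchangeable apolipoprotein that inhibits lipoprotein lipase, had 3 reads in the Usp5 Knockdown RIP, 3 in its input, 29 in the control RIP and 0 in the control input. Each of these 4 genes thus had most of its reads in 1 library, and not in the same one: the control input for Apoa1 and Apoa2, the control RIP for Apoc1 and the Usp5 Knockdown RIP for Apom. The highest library held 88.9% of the reads of Apoa1, 81.8% of those of Apoa2, 82.9% of those of Apoc1 and 70.5% of those of Apom. Over the 5591 genes under 1 CPM with at least 10 reads the median of this share was 82.8% (quartiles 57.9 and 100), and the shares of these 4 genes lay between those quartiles. Apoc3, an inhibitor of lipoprotein lipase, and Apoa4, known from chylomicrons, had 0 reads in each of the 4 libraries, which allows up to 3 reads in each.

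RIP over input asks which RNAs were recovered with the YTHDF1 antibody. Over both kinds of cell, Apob was the gene of the 4 compared that passed the test, and it was lower in RIP than in input (log2 fold change -1.11, 2.16-fold lower, adjusted p = 0.000729, lower in both cells). The test was edgeR's quasi-likelihood test, two-sided, with the cells (Usp5 Knockdown or control) as a block, 4 libraries and 1 residual degree of freedom, adjusted over 12920 genes by Benjamini-Hochberg. Its replication was 1 lysate of Usp5 Knockdown and 1 of control cells, so any effect of the guide on recovery counted as error. By this test 11.3% of genes were lower in RIP and 10.2% were higher (1461 and 1321 genes, or 969 and 1686 when scaled to library totals). With the same test Apoh had a log2 fold change of -2.75 (adjusted p = 0.148), Mttp -0.42 (adjusted p = 0.446) and Apoe 0.15 (adjusted p = 0.447), and these 3 did not pass. The median log2 fold change was -0.76 for the 4 genes and 0.08 for all genes tested. No precipitate with an unrelated antibody was used here, so recovery by YTHDF1 and by the beads cannot be told apart.

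In Usp5 Knockdown cells RIP over input was lower by the 2-fold rule for 2 of the 4 genes, Apob and Apoh, and higher for 0 (13.7% and 15.9% of all genes compared). In control cells it was lower for the same 2 genes and higher for 0 (15% and 18.4% of genes). Apob was 2.03-fold lower in RIP in Usp5 Knockdown cells, with a log2 ratio of -1.02 (counting interval -1.07 to -0.97), and 2.29-fold lower in control cells, with a log2 ratio of -1.20 (-1.25 to -1.14). The widened intervals, -1.31 to -0.73 in Usp5 Knockdown cells and -1.51 to -0.88 in control cells, also lay below 0, and with widened intervals Apob alone of the 4 passed the rule in RIP over input. By that rule 6.37% of all genes compared were lower and 4.86% higher in Usp5 Knockdown cells, and 8.02% were lower and 6.15% higher in control cells. Apob is an abundant RNA (mean log2 CPM 7.63). Of the 5126 genes at a mean log2 CPM of 5 or more, 8.15% were lower in RIP in Usp5 Knockdown cells. In control cells 11.0% were, both by the 2-fold rule with counting intervals. This share was not computed with widened intervals. The value of Apob in Usp5 Knockdown cells lay close to the 2-fold limit, and was under it with library totals (log2 ratio -0.89) or upper-quartile factors (-0.9993).

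Apoh was 8.41-fold lower in RIP in Usp5 Knockdown cells (log2 ratio -3.07, counting interval -3.74 to -2.51) and 5.27-fold lower in control cells (log2 ratio -2.40, -3.07 to -1.82). It rested on 26 and 28 RIP reads, and the widened intervals reached 0.02 in Usp5 Knockdown cells and 1.46 in control cells. Of the 7794 less abundant genes, to which Apoh belongs, 17.4% and 17.7% were lower in RIP by the 2-fold rule in Usp5 Knockdown and control cells. The low RIP level of Apoh was seen in both cells, with widened intervals that included 0 in each.

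Apoe had a log2 ratio of RIP over input of 0.05 in Usp5 Knockdown cells (counting interval 0.02 to 0.08) and of 0.24 in control cells (0.21 to 0.27). Even with the widened intervals, -0.16 to 0.26 and 0.06 to 0.43, both lay well inside 2-fold. The median of all genes compared was 0.02 in Usp5 Knockdown and 0.03 in control cells. Mttp had a log2 ratio of 0.10 in Usp5 Knockdown cells (counting interval -0.07 to 0.27) and of -0.92 in control cells (-1.06 to -0.79), with widened intervals of -0.999 to 1.34 and -1.73 to -0.07. Apob and Mttp, whose products act together in the ER, were thus both lower in RIP in control cells, and Apob but not Mttp by at least 2-fold.

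**Figure D2:**
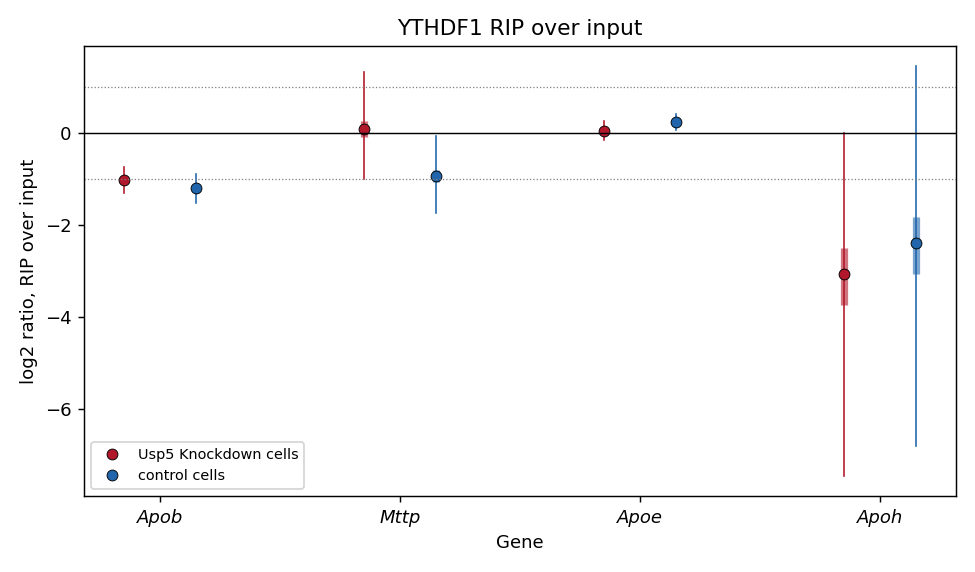
Log2 ratio of RIP over input (vertical axis) for the 4 genes compared, with Usp5 Knockdown cells left of control cells, 1 RIP and 1 input library each; thick bars are 95% counting intervals, thin bars the intervals widened for scatter, and dotted lines mark 2-fold. Apob lies at -1.02 and -1.20 with short bars, Apoe near 0, and the thin bars of Apoh in both cells and of Mttp in Usp5 Knockdown cells cross 0.

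**Figure D3:**
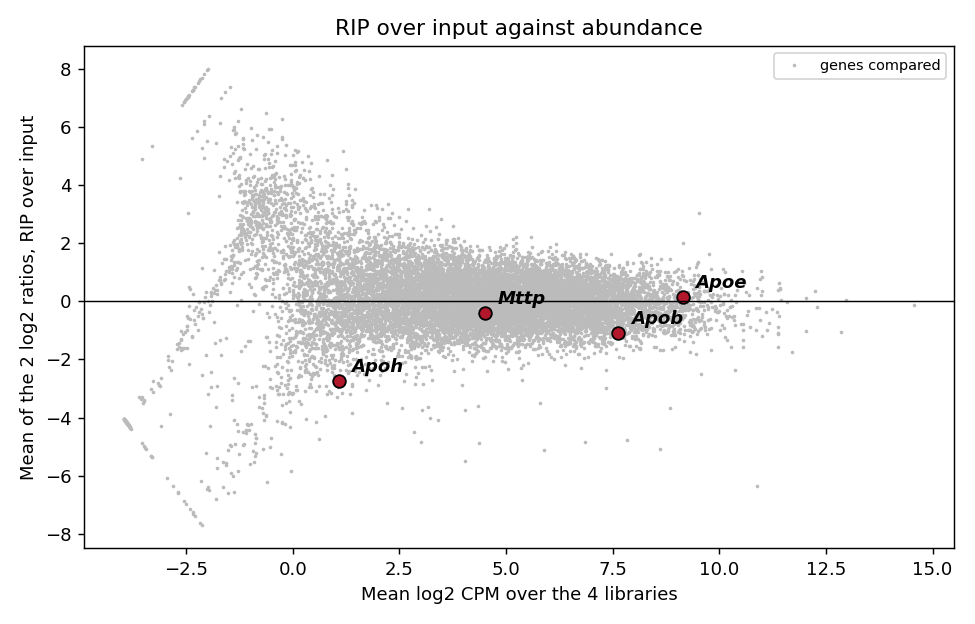
Mean of the log2 ratios of RIP over input in Usp5 Knockdown and control cells (vertical axis) against the mean log2 CPM over the 4 libraries (horizontal axis); grey points are the 12920 genes compared and red points the 4 named ones. Apob at a log2 CPM of 7.63 lies in the lower part of the cloud, with genes of like abundance below it, Apoe and Mttp lie inside it, and Apoh lies where the cloud is wide.

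Of the 6 genes below 1 CPM, Apoa4 and Apoc3 had no reads and gave no ratio, and the other 4 gave ratios of either direction. Apoa1 had 4 reads in the control RIP against 48 in the control input, a log2 ratio of -3.73 (counting interval -5.84 to -2.46). Apoc1 was at least 7.73-fold higher in the control RIP than in the control input, which had 0 reads, taking the 29 RIP reads as counted and 3 reads for the input. The counting interval, which also covers the error of the 29 reads, began at a log2 ratio of 2.56. Apoc1 had 3 reads in each fraction of Usp5 Knockdown cells. Apom had a log2 ratio of RIP over input of 1.45 in Usp5 Knockdown cells (0.60 to 2.43). Of the 5591 genes in this range, 56.5% passed the 2-fold rule in either direction in Usp5 Knockdown cells and 56.5% in control cells. For each of the 4 genes with reads the widened interval of RIP over input included 0 in both cells. With so few reads divided by the scatter it could hardly exclude 0, so nothing is concluded from it.

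The inputs compare the RNA content of the cells. Usp5 Knockdown over control was lower by the 2-fold rule for 1 of the 4 genes, Mttp, and higher for 0 (12.1% and 12.4% of all genes compared). Mttp was 2.34-fold lower in the Usp5 Knockdown input (log2 ratio -1.22, counting interval -1.38 to -1.08), and the widened interval, -2.54 to -0.03, ended just below 0. With widened intervals Mttp still passed the rule, by which 0.929% of all genes were lower and 0.813% higher. Mttp, at a mean log2 CPM of 4.50, is among the less abundant genes, of which 39.4% passed the 2-fold rule with counting intervals in either direction, against 1.91% of the abundant ones. Apoe was 1.32-fold lower (log2 ratio -0.40, counting interval -0.43 to -0.36, widened -0.64 to -0.15), and Apob 1.14-fold higher (0.19, 0.15 to 0.24, widened -0.14 to 0.53). Apoh had a log2 ratio of 0.74 (0.41 to 1.07), with a widened interval of -2.10 to 4.15. Of the 2 partners of VLDL assembly, Mttp thus passed the rule in the inputs, and the widened interval of Apob included 0.

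Between the RIP libraries, Usp5 Knockdown over control was higher by the 2-fold rule for 0 of the 4 genes and lower for 0 (4.55% and 4.64% of all genes compared). Apoe was 1.50-fold lower in the Usp5 Knockdown RIP (log2 ratio -0.59, counting interval -0.62 to -0.56), and the widened interval, -0.71 to -0.46, excluded 0. It was thus below control in both fractions, by 1.32-fold in inputs and by 1.50-fold in RIP, in 2 pairs of libraries that come from the same 2 lysates. The share of all genes with a widened interval that excluded 0 was not counted in either fraction. Scatter was measured up to a mean log2 CPM of 6, and Apoe (9.15) and Apob (7.63) lie above that. Apob was 1.29-fold higher in the Usp5 Knockdown RIP (log2 ratio 0.37, 0.31 to 0.43, widened 0.11 to 0.63). Its ratio was above 0 in both fractions, but the widened interval between the inputs, -0.14 to 0.53, included 0. Mttp had a log2 ratio of -0.20 (-0.36 to -0.05, widened -0.92 to 0.50), so the difference between the inputs was not matched in size between the RIP libraries. Apoh had a log2 ratio of 0.06 (-0.76 to 0.89).

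**Figure D4:**
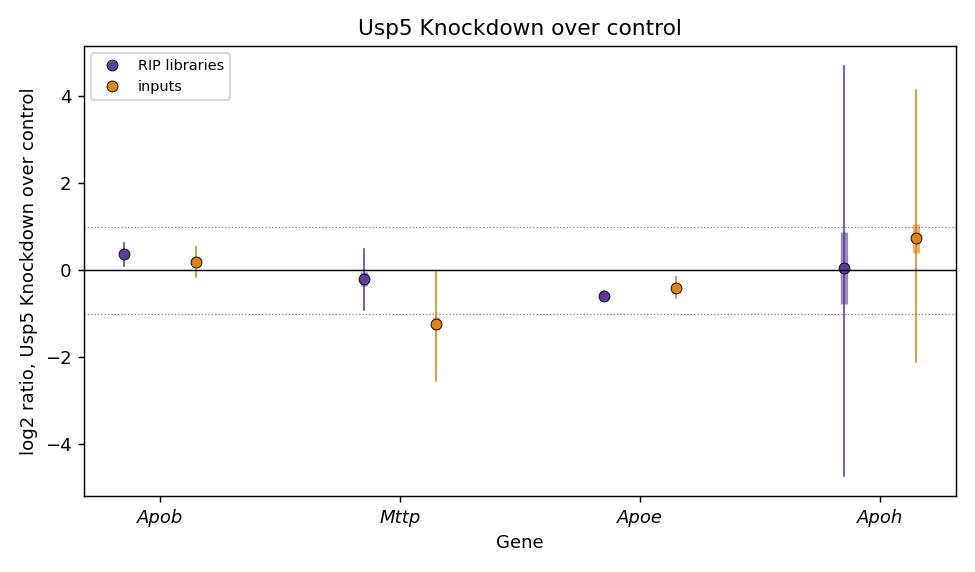
Log2 ratio of Usp5 Knockdown over control (vertical axis) for the 4 genes compared, with the RIP libraries left of the inputs, 1 library per group; thick bars are 95% counting intervals, thin bars the intervals widened for scatter, and dotted lines mark 2-fold. The points of Apoe lie below 0 and those of Apob above 0 in both fractions, and Mttp lies beyond 2-fold in the inputs alone. The thin bar of Apob in the inputs crosses 0.

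Whether recovery in the RIP differed after Usp5 Knockdown was measured by the ratio of the enrichments, which uses all 4 libraries. It was higher by the 2-fold rule for 1 of the 4 genes, Mttp, and lower for 0 (13.3% and 13.8% of all genes compared). For Mttp the ratio was 2.03-fold higher in Usp5 Knockdown cells (log2 1.02, counting interval 0.81 to 1.24), with a widened interval of -0.27 to 2.31, and was under 2-fold with library totals (log2 0.97). It is the log2 ratio of -0.20 between the RIP libraries less that of -1.22 between the inputs. The control input, highest for Mttp at 40.0 CPM, enters this ratio, that between the inputs and RIP over input in control cells. Of the less abundant genes, to which Mttp belongs, 43.1% passed the 2-fold rule for the ratio of enrichments in either direction. Apob had a log2 ratio of enrichments of 0.17 (0.10 to 0.25) and Apoe of -0.19 (-0.24 to -0.15), and the widened intervals of both, -0.24 to 0.59 and -0.46 to 0.08, included 0. Apoh had -0.67 (-1.50 to 0.15). The depletion of Apob from the RIP, 2.03-fold in Usp5 Knockdown and 2.29-fold in control cells, thus differed by less than the widened interval.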

How the data were processed

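The authors deposited raw read counts per Ensembl gene ID for 4 libraries in 1 table, made with HISAT2 2.1.0 and featureCounts 1.6.3 on mm10, per the submitters' processing notes. The handling of strand, overlapping genes, multiple matches and duplicates is not given in the sources used here. Each column was matched to a sample by its short name, and 0 columns were left over. The 10 members were named from the request for this report. RefSeq's gene table (49997 genes, GRCm38.p6) holds 0 Ensembl IDs, so the other gene lists, cell type markers, genes of like pattern and transcript lengths that had been planned could not be matched and were not analysed here. All 10 symbols had a position in it, and 8 a promoter.

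Counts were scaled with TMM factors (edgeR 4.0.16, R 4.3.3), which were 1.06 (Usp5 Knockdown RIP), 0.969 (Usp5 Knockdown input), 1.05 (control RIP) and 0.926 (control input). Genes were compared if their mean before scaling reached 1 CPM, which 12920 did. Log2 ratios were taken after adding 0.5 counts. Counting intervals are Clopper-Pearson intervals of each pair's read split, and for the ratio of enrichments come from the sum of the reciprocal counts. Widened intervals use counts divided by the measured scatter, which includes any change with the guide. That scatter was measured at a mean log2 CPM between 0 and 6, below Apob and Apoe and above Apoa1, Apoa2, Apoc1 and Apom. RIP was tested against input with edgeR's quasi-likelihood test, with the cells as a block because input and RIP share a lysate. No test was made between Usp5 Knockdown and control, since each had 1 lysate. The code was tested on simulated data. Alternatives were other scaling factors, filters, counts added, intervals, DESeq2 1.42.0 and no block. The members and lists were chosen with earlier results of these data known.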

Additional observations from a re-analysis of the deposited data

Results flagged for a closer look

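Apoa2 went in opposite directions in the 2 cells. In Usp5 Knockdown cells it was at least 5.83-fold higher in RIP than in input (18 reads in RIP and 0 in input) and at least 33.8-fold lower in control cells (0 reads in RIP and 81 in input). The same reads made Usp5 Knockdown over control at least 29.1-fold lower in the inputs and at least 6.75-fold higher in the RIP libraries. These folds take 3 reads for the library at 0 and the other library's reads as counted. The counting intervals, which also cover the error of those reads, end nearer to no difference. On the log2 scale their near limits were 2.09 and -4.75 for RIP over input in Usp5 Knockdown and control cells, -4.53 between the inputs and 2.31 between the RIP libraries. The widened intervals of these 4 ratios included 0, with near limits of -7.09, 1.71, 3.58 and -5.22 in the same order. For Apoa2 the log2 ratio of enrichments, Usp5 Knockdown over control, was 12.71, and its widened interval, 6.26 to 19.15, excluded 0. This value depends on the 0.5 counts added to the Usp5 Knockdown input and the control RIP, which had 0 reads, so nothing is concluded from it. These differences were not tested. Of the 5591 genes under 1 CPM with at least 10 reads, 49.9% had 0 reads in exactly 1 of the 2 libraries of Usp5 Knockdown cells, and 50.1% in exactly 1 of those of control cells. The share was 42.4% between the 2 inputs and 36.7% between the 2 RIP libraries.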

How the results depend on the processing

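The call of Apob as lower in RIP over both cells held under the 7 alternatives run, with adjusted p between 1.37e-09 (DESeq2 1.42.0) and 0.00898 (no replicate block, where its log2 fold change was -1.10). Apoe, Apoh and Mttp passed in none of those run for them, with lowest adjusted p of 0.119, 0.0555 and 0.371. Leaving out 1 kind of cell leaves a ratio with no test: Apob ranged from -1.20 to -1.02, and Mttp from -0.92 to 0.10, the last without the control libraries. Under the 2-fold rule, genes lower in RIP in Usp5 Knockdown cells numbered 1 in place of 2 with upper-quartile factors, library totals, a mean of at least 5 CPM or widened intervals. In control cells they numbered 1 in place of 2 with the last 2 of these. A mean of at least 5 CPM leaves out Apoh by construction. The ratio of enrichments counted 0 genes higher in place of 1 with library totals or widened intervals. With 10 reads in all as the filter, Apoa1, Apoa2, Apoc1 and Apom enter. RIP over input then counted 2 genes higher in Usp5 Knockdown cells, and 1 higher and 4 lower in control cells. The inputs counted 1 higher and 3 lower, the RIP libraries 2 higher and 1 lower, and the ratio of enrichments 2 higher and 1 lower. Many of the 5591 genes under 1 CPM with at least 10 reads passed the rule in either direction. Their share was 56.5% for RIP over input in each of the cells and 43.9% between the inputs. It was 53.5% between the RIP libraries and 27.8% in the ratio of enrichments. Library totals moved the median of all genes to 0.15 in Usp5 Knockdown and 0.21 in control cells for RIP over input, and Apob to -0.89 and -1.01. No called ratio of a gene changed sign under the scalings, filters, counts added and intervals run. Levels per length were not run, since no transcript length was at hand. Depth limits Apoh and the 6 genes below 1 CPM.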
